A study of Homo sapiens with 12 samples.

Results

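A set of 7 listed genes (CDC42EP1, CDC42EP2, CDC42EP3, CDC42EP4, CAMK2N1, CAMK2N2 and PBXIP1) was examined among the 57815 genes measured in NRF2-activated non-small cell lung cancer cells. Of these 7 genes, 3 (CDC42EP1, CAMK2N1 and PBXIP1) were chosen by their response to NRF2 siRNA, which turned sign between cell lines or was large in 1 line. Their fold changes are therefore given as a description, with no test. The other 4 genes are paralogs of the chosen genes and were included for comparison. Sequencing covered 12 libraries in 6 groups of 2, from A549, H2023 and H460 cells that had received control siRNA or NRF2 siRNA for 48 h. All 3 lines carry a KEAP1 mutation, in the controls as well as after knockdown. KEAP1 is the negative regulator of NRF2, the transcription factor of the oxidative stress response that is encoded by NFE2L2. A549 and H2023 are lung adenocarcinoma lines and H460 is a large cell carcinoma line. In each line the NRF2 siRNA library numbered 0 received siRNA 28 and the library numbered 1 received siRNA 30, so that the spread of an NRF2 siRNA group holds the difference between these siRNAs as well as the difference between cultures. The controls were biological duplicates that received control siRNA. A549 was grown in high-glucose medium and its RNA was depleted of rRNA, whereas H2023 and H460 were grown in low-glucose medium and their RNA was selected for polyA. Line and protocol cannot be told apart in A549, and its levels are not compared with those of the other lines.

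The CDC42EP genes encode the Borg proteins, which bind the active form of the small GTPase CDC42 and of its relative TC10 and which also bind septins, the filament-forming GTPases of the cell cortex. CDC42 controls actin protrusions and cell polarity. CAMK2N1 and CAMK2N2 encode small inhibitors of CaMKII, the calcium- and calmodulin-dependent kinase. PBXIP1 encodes a protein that binds PBX homeobox transcription factors and hinders their binding to DNA with HOX proteins. It also binds estrogen receptors and microtubules.

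The genes lie apart in the genome (GRCh37, whole gene bounds). CDC42EP1 is on chromosome 22, 37956487 to 37965412, plus strand. CDC42EP2 is on chromosome 11, 65082337 to 65089888, plus strand. CDC42EP3 is on chromosome 2, 37869025 to 37965611, minus strand. These long gene bounds enclose an antisense RNA gene, CDC42EP3-AS1, which did not exceed 0.271 FPKM in any library, and the libraries were strand-specific. CDC42EP4 is on chromosome 17, 71279763 to 71308144, minus strand. CAMK2N1 and PBXIP1 share chromosome 1 but not a neighbourhood, with CAMK2N1 at 20808884 to 20812703 and PBXIP1 at 154916552 to 154928599, both on the minus strand. CAMK2N2 is on chromosome 3, 183977001 to 183979341, minus strand. No stretch of 31 bases was shared between the transcripts of these 7 genes, so a fragment that matched its transcript over that length could not belong to a paralog. For CDC42EP2, 95.4% of the 31-base stretches also belong to a longer overlapping gene model of the same strand that has no row in these files, so its value can hold reads of that model.

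The 250 bases before the start of the genes with the opposite and the single-line pattern are shown because these promoters differ in base content. They are RefSeq sequences on GRCh38.p14, and a promoter of CAMK2N1 was not analysed here. CG dinucleotides, the sites of DNA methylation, are in capitals. CDC42EP1 is at chr22:37560230-37560479, plus strand, and PBXIP1 at chr1:154956100-154956349, minus strand.
CDC42EP1: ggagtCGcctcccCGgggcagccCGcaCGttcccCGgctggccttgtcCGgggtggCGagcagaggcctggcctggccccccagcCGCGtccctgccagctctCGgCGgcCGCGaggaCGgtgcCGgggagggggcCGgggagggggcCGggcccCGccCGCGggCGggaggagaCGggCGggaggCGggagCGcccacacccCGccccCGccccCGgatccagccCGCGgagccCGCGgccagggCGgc
PBXIP1: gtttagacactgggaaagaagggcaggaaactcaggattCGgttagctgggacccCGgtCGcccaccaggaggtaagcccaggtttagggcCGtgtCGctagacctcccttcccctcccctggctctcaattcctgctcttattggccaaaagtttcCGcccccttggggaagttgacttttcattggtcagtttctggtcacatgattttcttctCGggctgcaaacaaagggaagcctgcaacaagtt
The CDC42EP1 stretch held 33 CG dinucleotides and was 84.0% G or C, whereas the PBXIP1 stretch held 7 and was 53.6% G or C. Over windows of 300 bases (250 before to 50 after the start), the median of 35116 promoters was 58.7% G or C. The core of the antioxidant response element, the site to which NRF2 binds with small MAF proteins, was searched on both strands as TGACNNNGC. It was in 13.3% of all windows and in 0 of the 8 windows of the 6 listed genes that had one. The AP-1 motif TGANTCA, which can overlap the antioxidant response element, was in 7.71% of all windows and in 0 of these 8.

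The targeted gene was checked first. NFE2L2 changed by -2.24 (A549), -3.86 (H2023) and -3.6 (H460) on the log2(FPKM + 1) scale, and the adjusted p-values were 0.0178, 0.00529 and 0.0111 (limma, n = 2 against 2 libraries per line). Each of these calls was lost when either control library of the line was left out (adjusted p = 0.0745 to 0.166, limma), with changes between -3.87 and -2.09. Each line was tested across all genes with limma on log2(FPKM + 1), where FPKM is fragments per kilobase of transcript and library size, and a gene passed when its Benjamini-Hochberg adjusted p was under 0.05. In A549, 0.554% of the genes tested were lower and 0.122% were higher after NRF2 siRNA. In H2023 these shares were 0.583% and 0.327%, and in H460 they were 6.86% and 7.12%. Mitochondrial transcripts took 8.56% and 13.1% of the FPKM sum in H460 control libraries and 20.8% and 26% in H460 NRF2 siRNA libraries. In H2023 these shares were 12% and 18.1% in controls and 17.3% and 22.8% after knockdown, and in A549 they were 0.892% to 1.56%. When they were left out and the rest rescaled, the median log2 change of all genes in H460 moved from -0.01 to 0.19, and 71.1% rather than 50.9% of the H460 calls were higher. With this scaling the H460 changes described below were -1.86 for CDC42EP1, 3.35 for CAMK2N1, 2.59 for PBXIP1 and 3.01 for CDC42EP3 on the log2 scale, in the directions given there. In H2023 CDC42EP1 was then at 1.11, CAMK2N1 at 0.58, PBXIP1 at 0.11 and CDC42EP3 at 2.24, beside a median of 0.10 over all genes. Of 6 epithelial markers, 5 in A549, 5 in H2023 and 4 in H460 reached 1 FPKM in every library, and CDH1 and EPCAM did not exceed 1.17 and 1.19 FPKM in H460. Their summed level was 2129.1 to 2547.3 FPKM in H2023 controls and 4624.9 to 5273.2 FPKM after knockdown, 1146.2 to 1345.7 against 1747.0 to 2610.9 FPKM in H460 and 6181.8 to 9113.8 against 7875.3 to 9194.8 FPKM in A549. The keratin genes KRT8, KRT18 and KRT19 made up nearly all of these sums. CLDN4 was at 7.28 ± 4.13 FPKM in H460 controls and 4.25 ± 0.724 FPKM after knockdown (SD, n = 2 each). CDH1 was at 10.3 ± 3.20 FPKM in H2023 controls and 61.6 ± 4.74 FPKM after knockdown (SD, n = 2 each). Of 6 lung adenocarcinoma markers, NKX2-1, SFTPB, SFTPC and SLC34A2 were under 1 FPKM in every library and NAPSA did not exceed 1.25 FPKM, whereas MUC1 was at 20.8 to 33.7 FPKM in H2023 and, in H460, at 2.13 ± 0.527 FPKM with control siRNA and 15.5 ± 7.93 FPKM after knockdown (SD, n = 2 each). Of 8 markers of other cell types, PTPRC (leukocytes), VWF (endothelium) and DCN (fibroblasts) were under 1 FPKM in every library, and CD68 was at 14.0 to 57.7 FPKM over all lines. CD68 had the highest mean of the 8 in both groups of each line. From controls to knockdown it went from 14.8 ± 1.1 to 28.6 ± 2.92 FPKM in A549 and from 45.6 ± 3.61 to 51.7 ± 8.51 FPKM in H2023. In H460 it went from 37.9 ± 1.84 to 22.9 ± 8.99 FPKM (SD, n = 2 each). The collagen genes COL1A1 and COL3A1 were above 1 FPKM in every H460 library, at 1.93 ± 0.178 and 3.50 ± 0.0932 FPKM in controls and 5.88 ± 0.0926 and 6.88 ± 2.38 FPKM after knockdown, and of the neuroendocrine markers CHGA was at 17.8 ± 4.72 against 5.32 ± 3.46 FPKM there, whereas SYP was at 1.07 ± 0.221 against 6.42 ± 0.927 FPKM (SD, n = 2 each). SYP was also higher on average after knockdown in A549 (3.39 ± 0.197 against 6.34 ± 0.655 FPKM) and H2023 (1.33 ± 0.165 against 3.38 ± 1.87 FPKM, SD, n = 2 each). The summed level of these 8 markers lay between 18.6 and 19.8 FPKM in A549 controls and between 33.5 and 38.5 FPKM after NRF2 siRNA. In H2023 it was 49.5 to 58.0 against 57.3 to 67.5 FPKM, and in H460 57.7 to 66.9 against 41.2 to 53.7 FPKM, and the part of these markers in the responses was not tested.

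CDC42EP1 showed opposite responses in H2023 and H460. In H460 it was at 50.6 and 34.2 FPKM in the control libraries and at 9.90 and 8.68 FPKM with siRNA 28 and siRNA 30. Both knockdown libraries lay far below both controls, and the mean was 4.56-fold lower (42.4 ± 11.6 against 9.29 ± 0.866 FPKM, SD, n = 2 each). In H2023 the control libraries were at 21.5 and 21.7 FPKM and the knockdown libraries at 43.9 and 45.8 FPKM. Here both knockdown libraries lay above both controls, and the mean was 2.08-fold higher. In A549 the values were 20.5 and 20.5 FPKM with control siRNA, 25.4 FPKM with siRNA 28 and 24.3 FPKM with siRNA 30. The A549 groups did not overlap either, but the mean differed by only 1.21-fold. On the log2(FPKM + 1) scale CDC42EP1 changed by -2.05 (SE 0.27) in H460, 1.02 (SE 0.16) in H2023 and 0.26 (SE 0.13) in A549. Among the polyA-selected lines, CDC42EP1 was higher in H460 than in H2023 with control siRNA and lower in H460 than in H2023 after knockdown, without overlap in either condition. As the samples were bulk cultures, fewer cells with a transcript and less transcript per cell cannot be told apart here or for the other genes.

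CAMK2N1 was nearly silent in H460 with control siRNA and measurable after knockdown. Its H460 values were 0.517 and 0.628 FPKM in controls, 14.3 FPKM with siRNA 28 and 10.1 FPKM with siRNA 30. The mean was thus 21.3-fold higher after knockdown (0.573 ± 0.0786 against 12.2 ± 2.93 FPKM, SD, n = 2 each), and both knockdown libraries lay above both controls. In H2023 it was at 34.1 and 30.8 FPKM in controls and at 42.2 and 50 FPKM with siRNA 28 and siRNA 30. In A549 it was at 41.1 and 34.5 FPKM in controls and at 42.0 and 51.7 FPKM with siRNA 28 and siRNA 30. In these lines the groups also did not overlap, but the means were only 1.42-fold and 1.24-fold higher. The log2(FPKM + 1) change was 0.30 (SE 0.17) in A549 and 0.49 (SE 0.17) in H2023, and reached 3.05 in H460. In H460 it passed the filter of 1 FPKM in at least 2 libraries only through the knockdown libraries, so no SE is given there. The H460 value depended on the pseudocount and was 4.17 with 0.1 in place of 1. Even after knockdown, CAMK2N1 remained lower in H460 than in the H2023 controls.

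PBXIP1 was at a several-fold higher level after knockdown in H460 and near its control level in the other lines. The H460 values were 10.2 and 11.9 FPKM in controls, 59.8 FPKM with siRNA 28 and 61.9 FPKM with siRNA 30. The mean was 5.50-fold higher (11.1 ± 1.21 against 60.8 ± 1.52 FPKM, SD, n = 2 each), and the siRNAs gave nearly the same level. In H2023 the controls were at 15.3 and 14.9 FPKM and the knockdown libraries at 16.7 and 14.1 FPKM, so that the groups overlapped. In A549 the controls were at 7.14 and 7.36 FPKM and the knockdown libraries at 9.53 and 7.49 FPKM, just above the controls. Its log2(FPKM + 1) change reached 2.36 (SE 0.22) in H460, against 0.20 (SE 0.17) in A549 and 0.02 (SE 0.19) in H2023. The H460 controls lay below those of H2023, and after knockdown H460 lay above H2023, in each case without overlap.

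**Figure D1:**
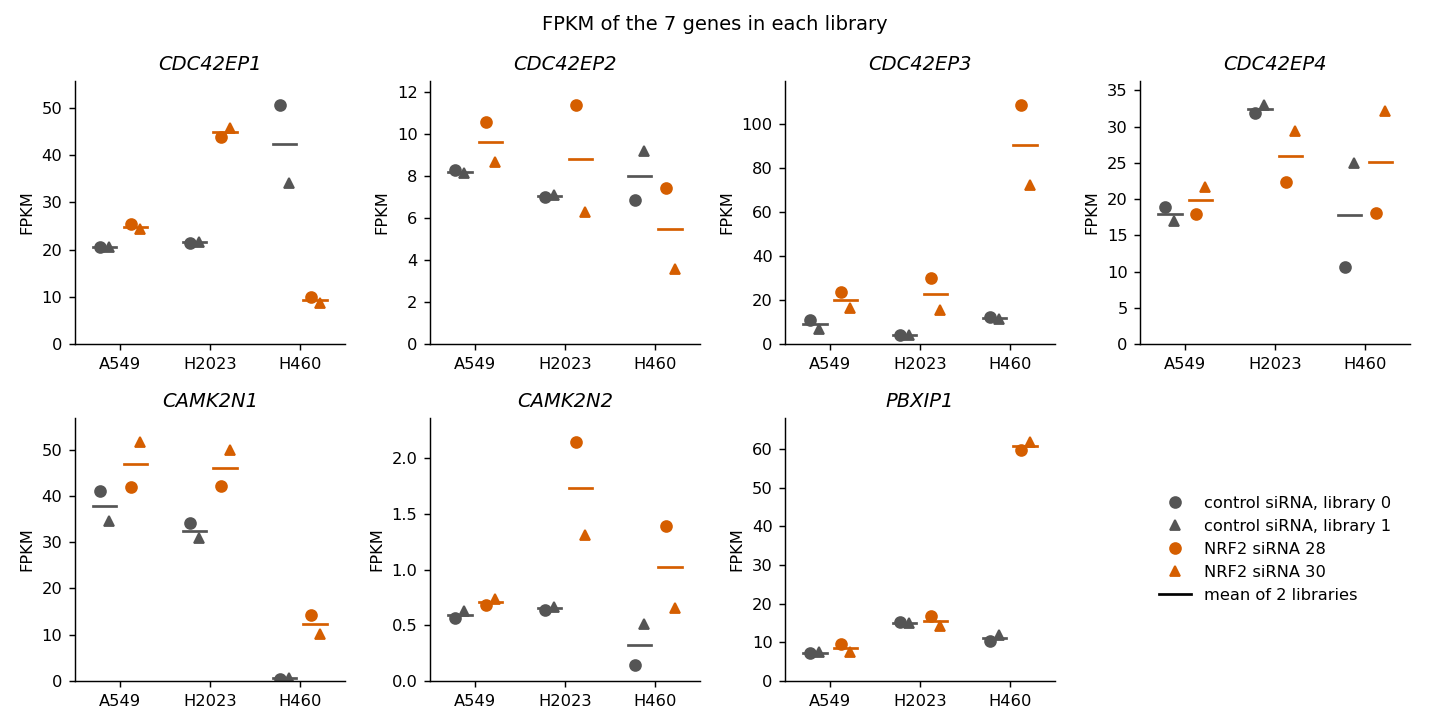
FPKM (vertical axis, linear, own scale for each gene) of the 7 genes in each of the 12 libraries by cell line, with control siRNA in grey, NRF2 siRNA in orange, circles for library 0 (siRNA 28 in the knockdown) and triangles for library 1 (siRNA 30), and a line at the mean of 2 libraries. CDC42EP1 goes up in H2023 and down in H460, PBXIP1 stands at 59.8 and 61.9 FPKM only in H460 knockdown libraries, and CDC42EP3 is higher after knockdown in every line.

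Among the paralogs, CDC42EP3 passed the test, in H460, and its mean was higher after knockdown in all lines, both where CDC42EP1 was lower and where it was higher. In H460, 3 paralogs were tested, and 7.12% of all genes passed as higher. CDC42EP3 was at 12.6 and 11.5 FPKM in H460 controls, at 108.8 FPKM with siRNA 28 and at 72.3 FPKM with siRNA 30. The mean was 7.52-fold higher (12 ± 0.824 against 90.6 ± 25.8 FPKM, SD, n = 2 each), a log2(FPKM + 1) change of 2.78 (SE 0.27, adjusted p = 0.0111, limma). In H2023 it was at 4.05 and 4.37 FPKM in controls and at 29.9 and 15.7 FPKM with siRNA 28 and siRNA 30. This 5.41-fold higher mean did not pass the test (log2 change 2.12, SE 0.33, adjusted p = 0.0712, limma). In A549 the controls were at 11 and 7.07 FPKM and the knockdown libraries at 23.7 and 16.6 FPKM. The A549 difference, 1.08 (SE 0.26) on the log2 scale, did not pass either (adjusted p = 0.206, limma). All knockdown libraries lay above all controls within each line. The H460 call was lost without control library 0 (adjusted p = 0.166) or control library 1 (0.119) and without the filter on low values (0.109, all limma), and the H2023 value passed in 1 fit of 12 libraries (0.00578). The H2023 value also passed without siRNA 28 (0.0105) or siRNA 30 (0.00309, limma), but these fits take the spread from the 2 close controls and leave out the difference between the siRNAs.

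CDC42EP2 and CDC42EP4 did not pass the test in any line. CDC42EP2 was at 6.88 and 9.19 FPKM in H460 controls, 7.45 FPKM with siRNA 28 and 3.57 FPKM with siRNA 30, with overlapping groups. In H2023 it was at 7.03 and 7.12 FPKM in controls, 11.4 FPKM with siRNA 28 and 6.28 FPKM with siRNA 30, where the siRNAs lay on either side of the controls. In A549 it was at 8.28 and 8.17 FPKM in controls and 10.6 and 8.70 FPKM after knockdown, without overlap. Its log2 changes were 0.20, 0.24 and -0.53 in A549, H2023 and H460 (adjusted p = 0.641, 0.747 and 0.364, limma). CDC42EP4 was at 10.6 and 25.0 FPKM in H460 controls, so that the controls alone spanned more than a doubling, and at 18.1 and 32.2 FPKM after knockdown. In H2023 it was at 31.9 and 33.0 FPKM in controls and at 22.4 and 29.4 FPKM after knockdown. In A549 it was at 18.9 and 17.0 FPKM in controls and at 18.0 and 21.7 FPKM after knockdown. The H2023 groups of CDC42EP4 did not overlap and the others did. Its log2 changes were 0.13, -0.33 and 0.53 in A549, H2023 and H460, with adjusted p-values of 0.771, 0.459 and 0.450 (limma). The 95% intervals reached from -1.42 to 0.36 for CDC42EP2 and from -0.55 to 1.62 for CDC42EP4 in H460, so changes of more than 2-fold were within reach of the error. CDC42EP5, the remaining family member, stayed under 1 FPKM in every library, with its highest values of 0.802 and 0.162 FPKM in H2023 NRF2 siRNA libraries, and was not tested.

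CAMK2N2, the paralog of CAMK2N1, was low in all lines. It was at 0.640 and 0.667 FPKM in H2023 controls and at 2.15 and 1.31 FPKM with siRNA 28 and siRNA 30. In H460 it was at 0.139 and 0.511 FPKM in controls and at 1.39 and 0.656 FPKM after knockdown, and in A549 at 0.562 and 0.627 against 0.681 and 0.738 FPKM. The knockdown libraries lay above the controls in each line, but differences of this size are below or near 1 FPKM. It passed the filter of 1 FPKM in at least 2 libraries only in H2023, through the knockdown libraries in which it was higher, so the difference of 0.71 on the log2 scale is given with no test. This value depended on the pseudocount and was 1.24 with 0.1 in place of 1.

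Of the 3 CDC42EP paralogs tested, 2 in A549, 2 in H2023 and 1 in H460 had groups that did not overlap. Over all genes tested, groups did not overlap in 45.7%, 49% and 62.7% of genes in these lines, so that a lack of overlap between 2 and 2 libraries was common. Over all genes, the authors' mean normalised counts summed to 33017216 (A549), 14228216 (H2023) and 14029849 (H460). The authors' mean for CDC42EP1 was 1657.5, 1104.8 and 808.7 in these lines. For CAMK2N2 it was 38.6, 36.1 and 15.2, the lowest of the 7 genes, so its values carry the most counting error.

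**Figure D2:**
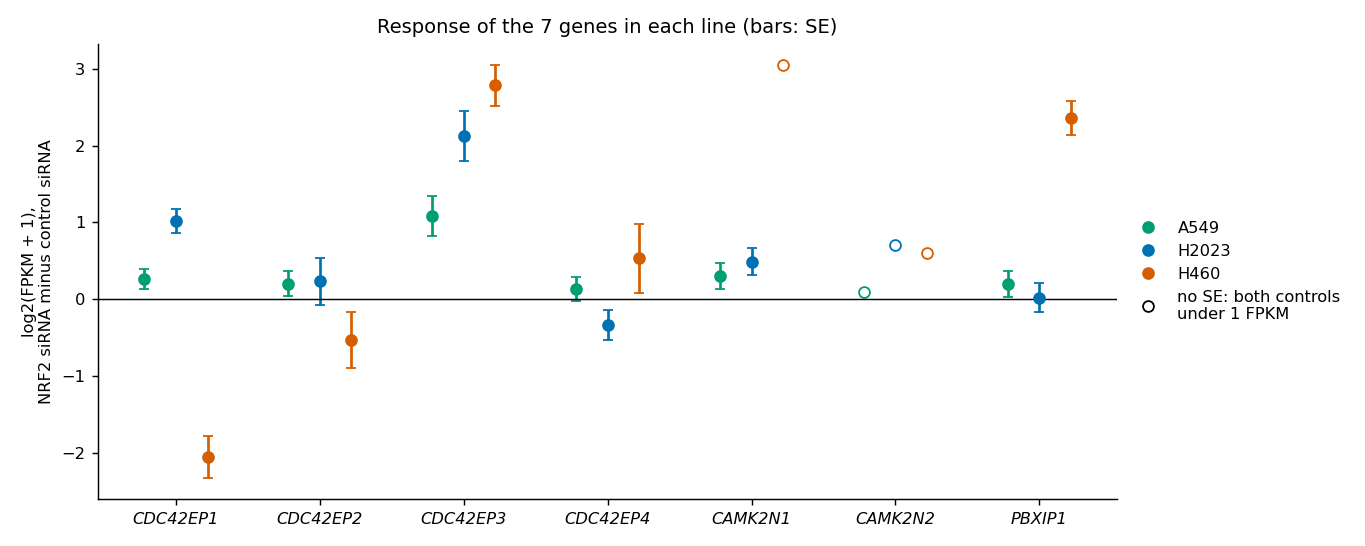
Change in log2(FPKM + 1), NRF2 siRNA minus control siRNA (vertical axis), for the 7 genes in A549 (green), H2023 (blue) and H460 (orange), with bars of 1 SE from limma and open circles with no SE for CAMK2N2 in all lines and CAMK2N1 in H460, where both controls were under 1 FPKM. CDC42EP1 lies at 1.02 in H2023 and -2.05 in H460, CAMK2N1 and PBXIP1 stand out in H460 at 3.05 and 2.36, and CDC42EP3 is above 0 in all lines.

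The make-up of the CDC42 effector family is given as a description, with no test. CDC42EP1 was chosen on a response that turned sign between lines, so its H2023 and H460 changes were both selected. A rise of 1 member also lowers the shares of the others. As FPKM is scaled to length, the levels of CDC42EP1 to CDC42EP4 were summed in each library. CDC42EP1 made up 62.7% and 42.8% of the sum in H460 controls and 6.87% and 7.44% with siRNA 28 and siRNA 30. CDC42EP3 made up 15.6% and 14.3% in controls and 75.4% and 62.0% after knockdown. CDC42EP1 was thus the leading member in both H460 controls and CDC42EP3 in both knockdown libraries. In H2023 the leading member was CDC42EP4 in both controls, at 49.5% and 49.9%, and CDC42EP1 in both knockdown libraries, at 40.8% and 47.2%. CDC42EP3 was the lowest of the 4 in H2023 controls, at 6.28% and 6.60%, and reached 27.8% and 16.1% after knockdown. In A549 CDC42EP1 led in all libraries, with 32.7% to 38.8%, and CDC42EP3 went from 18.7% and 13.4% to 30.5% and 23.3%. The summed FPKM of the family was higher after knockdown without overlap in every line, at 55.7 ± 4.24 against 74.4 ± 4.51 in A549, 65.4 ± 1.24 against 102.4 ± 7.42 in H2023 and 80.3 ± 0.577 against 130.5 ± 19.5 in H460 (SD, n = 2 each). CDC42EP2 and CDC42EP3 changed places at the foot of the A549 controls, where their shares of 14.1% and 18.7% in library 0 and 15.5% and 13.4% in library 1 do not set an order.

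**Figure D3:**
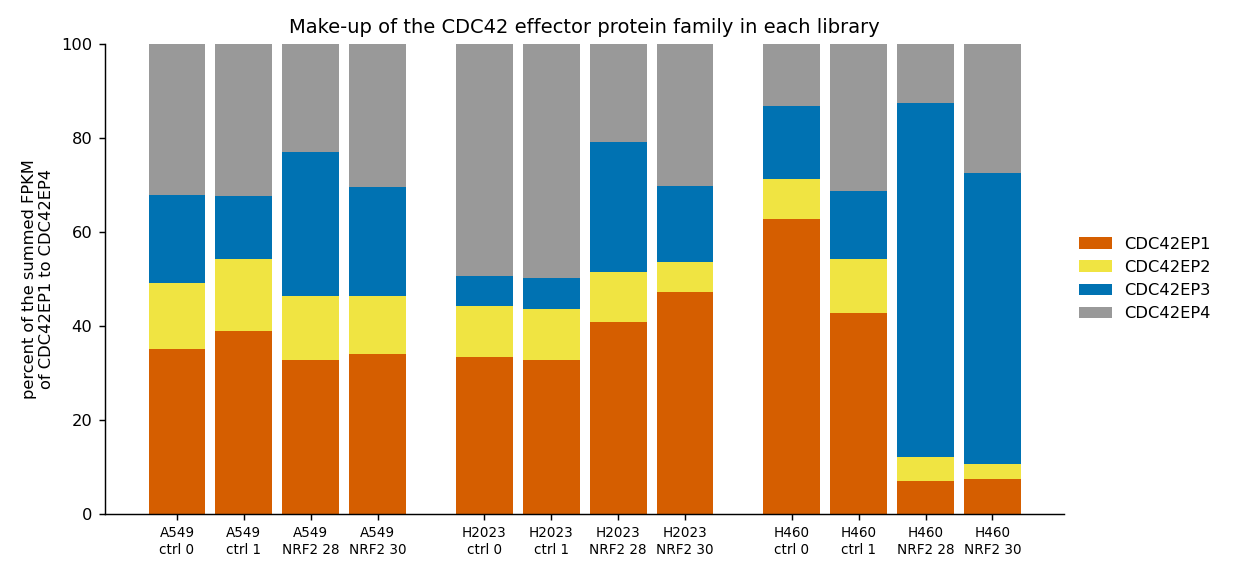
Percent of the summed FPKM of CDC42EP1, CDC42EP2, CDC42EP3 and CDC42EP4 (vertical axis, stacked to 100) in each of the 12 libraries, labelled by line, control library number or NRF2 siRNA number. In H460 the CDC42EP1 part shrinks from 62.7% and 42.8% to 6.87% and 7.44% while the CDC42EP3 part grows to 75.4% and 62.0%.

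Whether the knockdown effect differed between lines was tested for the paralogs in 1 fit of all 12 libraries, in which 2.51% of 11571 genes passed. Neither CDC42EP2 (adjusted p = 0.471), CDC42EP3 (0.117) nor CDC42EP4 (0.543) passed this limma F test, and CAMK2N2 was under its filter. For CDC42EP3 the effect in H460 exceeded that in A549 by 1.7 (95% interval 0.69 to 2.71, adjusted p = 0.0674) and that in H2023 by 0.66 (95% interval -0.35 to 1.67, adjusted p = 0.421, limma). For CDC42EP2 the effect in H460 was below that in H2023 by an interval that reached from -1.76 to 0.23, and for CDC42EP4 the same difference lay between -0.25 and 1.98. The test was not applied to CDC42EP1, CAMK2N1 and PBXIP1, which were chosen on this difference.

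How common such patterns were is given as counts over the 11571 genes measured in all lines. A change of at least 1 (log2) without overlap in H460 and of less than 0.5 in both other lines was seen upward in 429 genes, 3.71%, among them PBXIP1 and CAMK2N1. CAMK2N1 entered this count through its H460 knockdown libraries alone, and its H2023 change of 0.49 lay just under the limit. That change was 0.501 with a pseudocount of 0.1, 0.578 without mitochondrial transcripts, 0.562 without H2023 control library 0 and 0.61 without siRNA 28, so that CAMK2N1 was not single-line under these 4 alternatives. The same pattern upward was seen in 60 genes for H2023 and in 6 genes for A549. A rise of at least 0.5 in H2023 with a drop of at least 0.5 in H460, both without overlap, was seen in 47 genes, 0.406%, among them CDC42EP1, and the mirror pattern in 47 others. A rise of at least 1 in all 3 lines without overlap, a pattern that was set after the values of CDC42EP3 had been seen, was met by 13 genes, 0.112%, among them CDC42EP3. Its A549 change of 1.08 lay just above the limit and was 0.795 without A549 control library 1 and 0.837 without siRNA 28 in A549, where the pattern was not met.

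**Figure D4:**
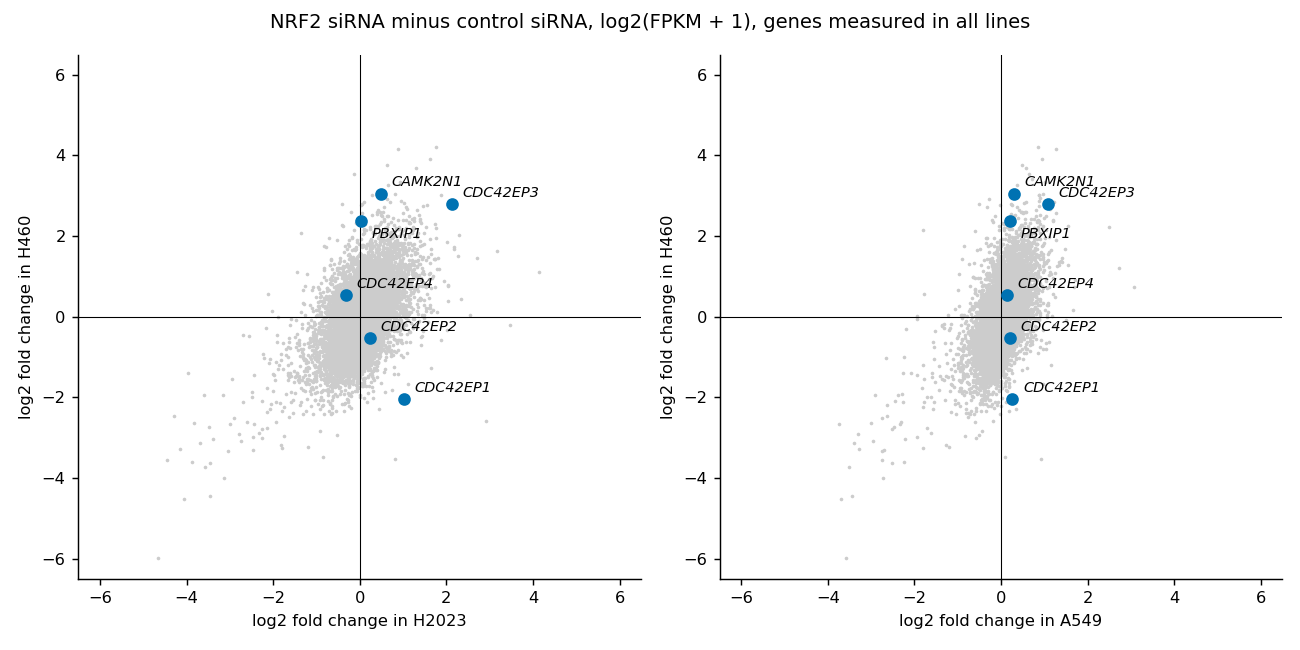
Change in log2(FPKM + 1) after NRF2 siRNA in H460 (vertical axis) against that in H2023 (left) and A549 (right) for 11571 genes (grey), with the listed genes measured in all lines in blue. CDC42EP1 sits in the lower right part at 1.02 and -2.05 in the left plot, PBXIP1 sits near 0 on the horizontal axes at a height of 2.36, CAMK2N1 sits at 0.49 and 0.30 on the horizontal axes at a height of 3.05, and CDC42EP3 is in the upper right part in both plots.

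The siRNAs 28 and 30 were compared with each other. The comparison was made over the 6 knockdown libraries, with the line as a covariate. As siRNA 28 was always in library 0 and siRNA 30 always in library 1, siRNA and library number cannot be told apart. None of the 15716 genes tested, 0%, passed in limma, although 2853 had an unadjusted p under 0.05 and 137 passed when only genes at 1 FPKM in all libraries were kept. CDC42EP1 differed by 0.06, CAMK2N1 by -0.03 and PBXIP1 by 0.17 on the log2 scale. A choice by response favours genes on which the siRNAs agree, so these 3 values are given with no test. Each is a mean over lines of both signs. In A549, H2023 and H460 the differences were -0.30, -0.24 and 0.46 for CAMK2N1. They were 0.06, -0.06 and 0.17 for CDC42EP1 and 0.31, 0.235 and -0.05 for PBXIP1. CDC42EP3 was higher with siRNA 28 in 3 of 3 lines, by 0.66 (95% interval 0.31 to 1.0, adjusted p = 0.145, limma). CDC42EP2 was also higher with siRNA 28 in 3 of 3 lines, by 0.64 (0.17 to 1.11, adjusted p = 0.199, limma). CDC42EP4 was lower with siRNA 28 in 3 of 3 lines, by -0.48 (-0.87 to -0.09, adjusted p = 0.214, limma). Its controls, which received no NRF2 siRNA, were also lower in library 0 than in library 1 in H460 (10.6 against 25.0 FPKM). The same held in H2023 (31.9 against 33.0 FPKM) but not in A549 (18.9 against 17.0 FPKM). Over all genes tested, 42.3% had the same sign in all 3 lines. CAMK2N2 differed by 0.31 (-0.14 to 0.76, adjusted p = 0.418, limma), and was higher with siRNA 28 in 2 of 3 lines.

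**Figure D5:**
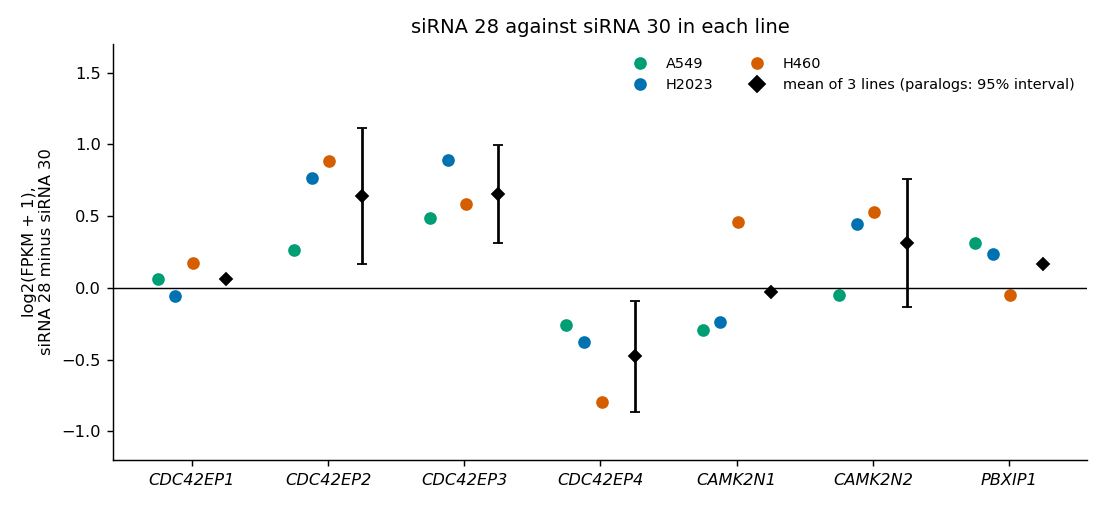
Difference in log2(FPKM + 1) between siRNA 28 and siRNA 30 (vertical axis) for the 7 genes, as a circle for each line and a black diamond for the mean of 3 lines, with its 95% interval from limma for the 4 paralogs. The means of CDC42EP1, CAMK2N1 and PBXIP1 lie at 0.06, -0.03 and 0.17, with lines on both sides of 0 for each. All 3 lines lie above 0 for CDC42EP2 and CDC42EP3 and below 0 for CDC42EP4.

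Genes of the pathways in which these proteins act were examined as lists, leaving out genes that passed the filter on low values through 1 group alone. Of 38 genes for CDC42, TC10, their regulators and other effectors, 30 were counted in H460, where DNMBP, an exchange factor for CDC42, rose by 1.17 (adjusted p = 0.0363, limma), FNBP1L, an effector that promotes actin assembly, rose by 1.13 (adjusted p = 0.0314, limma) and the formin gene DIAPH3 fell by 1.23 (adjusted p = 0.0325, limma). These 2 higher and 1 lower of 30 stand beside 7.12% higher and 6.86% lower over all genes in H460. The median change of this list was -0.09 in H460 (all genes -0.01), 0.08 in H2023 (all genes 0.02) and 0.04 in A549 (all genes 0.02), and none of its genes passed in A549 (31 counted) or H2023 (29 counted). Among 13 septins, SEPTIN5 fell in H2023, from 34.8 ± 0.141 to 11.8 ± 0.574 FPKM (SD, n = 2 each, log2 change -1.49, adjusted p = 0.0345, limma), as 1 of 10 tested beside 0.583% lower over all genes, and none of the 8 tested in A549 or the 8 tested in H460 passed. The septin medians were 0.03 in A549, 0.22 in H2023 and -0.01 in H460. Of the CaM kinases and calmodulins, none passed in any line (9, 10 and 9 counted in A549, H2023 and H460), with medians of 0.01, 0.09 and -0.21. Of the PBX genes, their partner homeobox genes and the estrogen receptors, none passed (7, 8 and 6 counted), with medians of 0.16, 0.40 and -0.21. Without control library 0 or 1 the calls of DNMBP, FNBP1L, DIAPH3 and SEPTIN5 were lost (adjusted p = 0.192 to 0.422, limma), that of DNMBP also without siRNA 30 in H460 (0.0551), and that of SEPTIN5 also without a trend of the prior variance (0.0544).

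Genes within 100000 bases of the listed genes were also examined. For CDC42EP1, CDC42EP4, CAMK2N1 and CAMK2N2 none of the neighbours tested passed in any line. Around PBXIP1, 2 of 8 passed in H460, CKS1B (-1.23, adjusted p = 0.0267) and ZBTB7B (1.08, adjusted p = 0.0303, limma). KCNN3 (-1.48) passed the filter on low values only through the controls, in which it was higher, and is given with no test. Around CDC42EP2, 2 of 4 passed in H460, SLC25A45 (1.67, adjusted p = 0.0215) and FRMD8 (1.76, adjusted p = 0.0247, limma), while CDC42EP2 itself did not. In H460, 6.86% of all genes were lower and 7.12% higher, and with 4 or 8 neighbours the counts are too small to be read against these shares. These 5 neighbours are named after their values had been seen, and the 4 calls were lost without either H460 control library.

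The genes whose profile was most like that of the chosen genes were found by Pearson's r of log2(FPKM + 1) over the 12 libraries, after the mean of each line was subtracted, among 11570 other genes. The libraries share lines, siRNAs and controls, and the highest of so many coefficients is high by selection, so r is given as a description. For CDC42EP1 they were PPP5C, SNRPD3, FARSA, MAPKAPK3 and PSMG1, with r from 0.959 to 0.986. For CAMK2N1 they were CELSR2, CCNL2, TBC1D20, LGALS3 and MVP, with r from 0.972 to 0.976. For PBXIP1 they were GLMP, PNPLA2, GPRC5C, MVP and PLPPR2, with r from 0.974 to 0.985. MVP, the major vault protein gene, was in both of the latter groups. Between CAMK2N1 and PBXIP1 r was 0.959, and between CDC42EP1 and PBXIP1 it was -0.86. Both genes of each pair were chosen by their response to NRF2 siRNA, which was large in H460. Strong coefficients of either sign between them therefore follow largely from the choice, and no link between these genes is read from them.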

How the data were processed

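Total RNA of the 12 libraries was sequenced by the authors as strand-specific paired reads. For each library the authors deposited FPKM values in 1 file. The study's methods name TopHat and Cufflinks with hg19, whereas the submitters' processing notes name STAR 2.5.3a, HTSeq and Cuffnorm, and which of these gave the FPKM values was not settled. FPKM holds no read counts, so no count model was fitted and a fold change on log2(FPKM + 1) understates that of low genes. The authors also deposited DESeq2 tables, of which only the mean normalised count per gene (a signal value over the libraries of a line) was used, and their fold changes, Wald statistics and p-values were left out.

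FPKM values under 1e-06 (12710) were set to 0. Identifiers were matched to GENCODE symbols on GRCh37, the hg19 assembly (96.1% matched). A gene was tested in a line if at least 2 of its 4 libraries reached 1 FPKM, in all lines for the fit of 12 libraries, and in at least 2 of 6 libraries for the siRNAs. Tests were made in limma 3.58.1 (R 4.3.3) with a trended prior variance, checked on simulated data, adjusted by Benjamini-Hochberg at 0.05. With 2 libraries per group an exact permutation test cannot go below p = 0.333. Tables and plots were made with pandas 2.3.3, numpy 2.4.6 and matplotlib 3.10.9 under Python 3.11.15. The members, gene lists and patterns were chosen with earlier results of these data known. Named genes were the 7 listed genes, CDC42EP5, NFE2L2, at most 5 genes past the threshold per list and line, and the 5 most similar profiles per chosen gene. Cell type markers, CDC42EP3-AS1 and some neighbours of the listed genes were also named. Alternatives were another pseudocount, other filters, scalings and priors, a replicate block, 1 fit of all libraries and leaving out each library.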

Additional observations from a re-analysis of the deposited data

Results flagged for a closer look

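CDC42EP1 responded in opposite directions in different lines. Both NRF2 siRNA libraries lay above both controls in A549 (log2 change 0.26) and in H2023 (1.02), and both lay below both controls in H460 (-2.05). The difference between the lines was not tested, because CDC42EP1 was chosen on it.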

How the results depend on the processing

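With 2 libraries per group, calls depended strongly on single libraries. Genes called numbered 94 in A549, 128 in H2023 and 1879 in H460, and leaving out 1 library gave 46 to 120, 0 to 1073 and 1 to 2810. A fit that leaves 1 library in a group takes its spread from the other group. The low ends came from leaving out a control library, control library 0 in A549 and either of the 2 in H2023 and H460. The 290 genes that differed between lines became 5 to 798, lowest without H460 control library 0. Without a filter on low values 0 genes were called in each line by limma. The prior without a trend gave 79 in H2023. One fit of 12 libraries gave 455 in H2023 and 3850 in H460. With FPKM of at least 1 in all libraries, 137 rather than 0 genes differed between the siRNAs. The cause of these shifts was not tested.

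With the replicate number as a block 711 genes were called in H2023, 3177 in H460 and 76 between lines, and CDC42EP3 passed in H2023 (log2 change 2.12, adjusted p = 0.0152, limma). Neither the labels nor the methods say that a number marks a shared culture or day, and the libraries were treated as unpaired. Deviations of same-numbered libraries correlated at -0.03 in A549, 0.31 in H2023 and 0.16 in H460, so shared variation in H2023 and H460 remains possible.

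CDC42EP1 stayed between 0.23 and 0.29 in A549, 0.99 and 1.11 in H2023 and -2.33 and -1.78 in H460 (log2), CAMK2N1 between 2.82 and 4.17 and PBXIP1 between 2.26 and 2.59 in H460, over the alternatives run. PBXIP1 ranged from 0.041 to 0.352 in A549 and from -0.094 to 0.142 in H2023. CAMK2N1 ranged from 0.152 to 0.448 in A549 and from 0.369 to 0.61 in H2023. CDC42EP2 in H2023 ranged from -0.149 to 0.62 when 1 library was left out, negative without siRNA 28, and CDC42EP4 in H460 from -0.049 to 1.11, negative without control library 0. The other changes of these genes kept their sign but moved by over 1.5 times with single siRNAs, CDC42EP2 from 0.073 to 0.336 in A549 and -0.971 to -0.085 in H460, and CDC42EP4 from 0.003 to 0.262 in A549 and -0.518 to -0.139 in H2023. CDC42EP3 in A549 ranged from 0.795 to 1.37. Between the siRNAs, CDC42EP1 turned to -0.006 without mitochondrial transcripts, and CAMK2N1 ranged from -0.268 to 0.108, positive without an A549 or H2023 knockdown library.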
